A study of Mus musculus with 6 samples.

Results

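The transcription factor p53, encoded by Trp53 in the mouse, and 32 of its direct target genes were followed in stimulated regulatory T cells with and without the splicing factor Srsf1. The genes were chosen by name as a list of 33 symbols, and all 33 are among the 24982 gene symbols of the count table, which writes them in capitals (TRP53, CDKN1A, MDM2, BAX). One of them, Gdf15, had too few reads to test, which left 32 of the 11772 genes tested. The cells were natural regulatory T cells (nTreg cells, CD4+CD25+CD127lo), sorted from the spleens of mice 8 to 10 weeks old on the strain given as B6.129. The knockout (KO) mice were Srsf1-flox/flox dLck.Cre, in which the distal Lck promoter drives Cre in T cells, and the comparison mice were labelled WT, with no statement of whether they carried the floxed allele or Cre. Cells of both genotypes were cultured for 72 h with antibodies to CD3 and to CD28, each at 2 µg/ml, and with recombinant interleukin-2 at 10 ng/ml before RNA was taken. There were 3 KO and 3 WT libraries, which the series' design text gives as 3 mice per genotype. One label field calls the cells effector CD4 T cells, while the titles and the sorting protocol call them nTreg cells.

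In a resting cell the p53 protein is made continuously and destroyed continuously, because the ubiquitin ligase Mdm2, itself a p53 target, marks it for degradation. DNA damage, oncogene activity and faults in ribosome assembly interrupt this loop, so p53 is controlled mainly as a protein and its activity is usually read from its targets. These targets stop the cell cycle, trigger apoptosis through mitochondria or death receptors, and adjust metabolism and DNA repair. In human and mouse fibroblasts SRSF1 has been described as part of a complex with the ribosomal protein RPL5 and MDM2 that stabilizes p53.

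The libraries held 10183626 to 20373649 counts in KO and 23263741 to 27562046 in WT, so that each KO library was shallower than each WT library. Srsf1 itself was measured at 438, 812 and 787 CPM (read counts scaled to a common library size and normalised for library composition) in KO and at 1214, 1230.4 and 755 CPM in WT. The groups therefore overlap for the targeted gene: the library labelled WT replicate 3 lies below KO replicates 2 and 3 (log2 fold change -0.65, SE 0.32, edgeR adjusted p = 0.682). A count of this gene also holds reads from exons that Cre leaves in place, and directions follow the labels throughout. KO replicate 1 stood apart, with correlations of log2 CPM across genes of 0.90 to 0.93 with the other libraries, against 0.94 to 0.99 among the other 5, and with the highest mismatch rate per base, 0.52% against 0.32% to 0.43%. Foxp3 and the genes of the sorting markers CD25 (Il2ra) and CD4 (Cd4) were present in every library. Foxp3, the lineage factor of Treg cells, was at 464, 357 and 413 CPM in KO and 159.6, 121 and 104 CPM in WT, with separate groups (log2 fold change +1.68, SE 0.25, edgeR adjusted p = 0.197, DESeq2 adjusted p = 1.59e-06). Cd4 was at 425, 447 and 503 CPM in KO and 316, 290.3 and 238 CPM in WT, also separate (+0.70, SE 0.23), and Il2ra was at 3300.3, 4929 and 6879.6 CPM in KO and 5429, 4073 and 6566 CPM in WT (-0.09, SE 0.32). Other Treg markers went in both directions. Ikzf2 stood at +0.91 (SE 0.32), Ikzf4 at +0.58 (SE 0.21) and Ctla4 at -0.79 (SE 0.46). Tnfrsf18 stood at +0.30 (SE 0.35), and at -0.19 without KO replicate 1. Of the markers of other cells, the CD8 T cell genes Cd8a and Cd8b1 summed to 38.9 to 60.5 CPM in KO and 193 to 269 CPM in WT. Cd8b1 stood at -2.68 (SE 0.23, edgeR adjusted p = 0.0166) and was among the 2 genes tested that passed an adjusted p of 0.05. Cd8a stood at -1.92 (SE 0.29, edgeR adjusted p = 0.197), and KO and WT were separate for both genes. The summed level of 9 macrophage genes was 0.453 to 1.37 CPM in KO and 0.271 to 0.753 CPM in WT, with 3 of them, Csf1r, Lyz2 and C1qa, at 0 throughout, and that of 5 B cell genes was 0.802 to 4.80 CPM in KO and 2.55 to 4.41 CPM in WT, with 4 of the 5 too low to test. For NK cells, 4 genes summed to 3.29 to 12.1 CPM in KO and 1.41 to 6.64 CPM in WT, with Klra4 at 0 throughout, and for red cells, 4 genes reached at most 0.151 CPM. The part of these cells and of the marker differences in the results below was not tested. In bulk RNA, fewer cells of a type and less RNA per cell cannot be told apart.

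No member of the p53 list passed the threshold of an adjusted p of 0.05 between KO and WT in edgeR's quasi-likelihood test, where 0.0170% of all genes tested passed. By unadjusted p under 0.05 there were 2 of 32 members, where the share over all genes was 7.51%: Ak1 was higher in KO (4.75% of all genes) and Plk2 lower (2.76%). KO and WT libraries did not overlap for 3 of the 32, where 15.7% of all genes did not: Trp53 and Ak1 were higher in KO (7.48% of all genes) and Plk2 lower (8.18%). With 2 and 3 members, these counts are too small to set the list apart from all genes. The median log2 fold change of the 32 members was +0.31, and 22 of them were above 0, beside a median of +0.02 over all genes and 51.6% of them above 0. The DESeq2 Wald test passed 1 member, Ak1 (adjusted p = 0.0437), where 1.10% of genes passed. In DESeq2, 7 of the 32 members had an unadjusted p under 0.05, where 9.42% of all genes did: Ak1, Bax, Bbc3, Dcxr, Phlda3 and Sesn2 were higher in KO (6 members, and 5.97% of all genes) and Plk2 was lower. This share of members is above that of all genes, unlike the share in edgeR. Of the 6 higher ones, all but Ak1 stood between -0.20 and +0.35 (log2, edgeR) without KO replicate 1. The standard errors of the members' log2 fold changes ran from 0.22 to 0.80, with a median of 0.33.

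**Figure D1:**
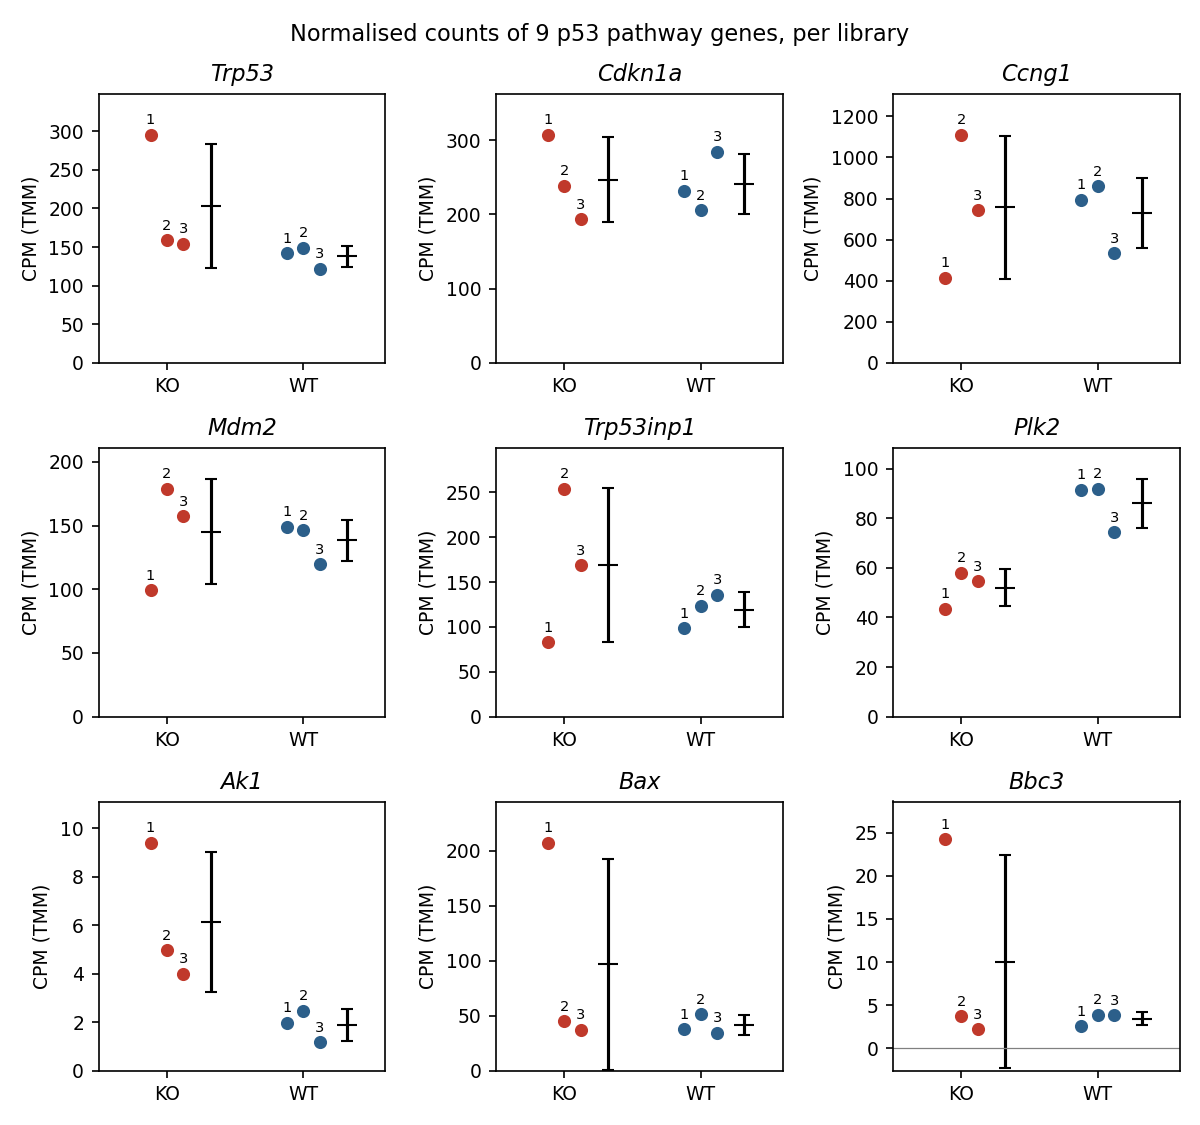
Normalised counts (CPM, linear axes) of 9 members in each library; points are libraries with their replicate numbers, KO in red and WT in blue, and the black bars are mean ± SD (n = 3 each). KO replicate 1 stands far above the other 5 libraries for Bax (208 CPM) and Bbc3 (24.3 CPM), and KO and WT are separate for Trp53, Plk2 and Ak1.

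Binding sites of p53 consist of a pair of copies of a short palindromic motif, the p53 half-site. RefSeq promoter windows of the GRCm38.p6 build, 250 bases before to 50 after each annotated start, were at hand for 26 of the 33 members and were searched for exact matches to the half-site consensus, which reads the same on both strands. Of these 26 members, 13 (50%) had at least 1 match in a window, against 9.55% of 27025 genes with a window. A pair of matches 0 to 13 bases apart was found in 1 member, Cdkn1a, and in 20 genes in all (0.074%). The stretches below are shown because they hold the matches of the genes that anchor the list: p53 itself, its inhibitor, and the arrest, apoptosis and stress genes. Capitals mark the half-site matches, and each stretch ends before an annotated start. Aen has a pair of annotated starts, and its stretch lies before the downstream one and spans the upstream one. Cdkn1a and Sesn1 also have a pair of starts each. The Cdkn1a matches lie before its upstream start and the Sesn1 match before its downstream start, and their other windows hold 0 matches.
Cdkn1a, chr17:29090891-29090952, plus strand: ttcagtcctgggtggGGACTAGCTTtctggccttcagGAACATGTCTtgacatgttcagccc
Trp53, chr11:69580269-69580308, plus strand: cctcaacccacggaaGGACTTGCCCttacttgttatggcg
Mdm2, chr10:117710920-117710959, minus strand: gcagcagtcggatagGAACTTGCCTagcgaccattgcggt
Ccng1, chr11:40755447-40755486, minus strand: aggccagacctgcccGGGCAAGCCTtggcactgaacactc
Bax, chr7:45467075-45467114, minus strand: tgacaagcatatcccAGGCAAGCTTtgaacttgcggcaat
Sesn1, chr10:41887251-41887290, plus strand: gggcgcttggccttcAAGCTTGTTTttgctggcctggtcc
Aen, chr7:78895922-78895961, plus strand: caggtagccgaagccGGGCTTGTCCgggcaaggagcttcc
A match is a description of the letters and not a measured site. The 13 members with a match, all of them tested, had a median log2 fold change of +0.07 in KO against WT, and the 12 tested members with a window but no match had +0.80. Without KO replicate 1 these medians were +0.18 and +0.13.

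Trp53 and the genes that feed back on it all had fold changes above 0 (4 of 4, median +0.28), none past the threshold. Trp53 was at 296, 159 and 154 CPM in KO and 142, 149 and 122 CPM in WT. Every KO library lay above every WT library, but KO replicates 2 and 3 only just did so. The log2 fold change was +0.56 (SE 0.30, edgeR adjusted p = 0.705). The p of an exact two-sided permutation test was 0.1, the smallest that 3 against 3 libraries allow. Without KO replicate 1 it stood at +0.18 (SE 0.15). Mdm2, the ligase that removes p53, was at 99.1, 179 and 157 CPM in KO and 149, 146 and 119.6 CPM in WT. Here KO replicate 1 was the lowest library and the other KO libraries were the highest (log2 fold change +0.07, SE 0.27, edgeR adjusted p = 0.942). Ccng1, cyclin G1, which recruits a phosphatase to Mdm2, was at 414, 1112 and 744 CPM in KO and 794, 859.9 and 535 CPM in WT. The KO libraries thus span the whole WT range for Ccng1 and go beyond it at both ends (+0.05, SE 0.37).

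Trp53inp1, a stress protein that promotes phosphorylation of p53 and takes part in autophagy, followed the same order within KO. It was measured at 82.9, 254 and 169 CPM in KO and 98.5, 124 and 136 CPM in WT. KO replicates 2 and 3 were above every WT library and KO replicate 1 was below them all, which left a log2 fold change of +0.50 (SE 0.38, edgeR adjusted p = 0.754). Without KO replicate 1 it stood at +0.83 (SE 0.22), with an unadjusted p of 0.0051 and an edgeR adjusted p of 0.292, where 10.4% of all genes had an unadjusted p under 0.05. Per unit of transcript length, Ccng1 had the highest level of these genes, 169 ± 69.1 FPKM in KO and 161 ± 35.0 FPKM in WT (mean ± SD, n = 3 each). Trp53 averaged 97.3 ± 48.2 FPKM in KO and 62.7 ± 5.53 FPKM in WT. Mdm2 averaged 36.9 ± 8.62 FPKM in KO and 35.0 ± 3.23 FPKM in WT, and Trp53inp1 had the lowest level, 23.8 ± 11.0 FPKM in KO and 16.9 ± 3.43 FPKM in WT.

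Of the 6 tested genes of cell cycle arrest and mitosis, 5 stood above 0 and 1 below, the median log2 fold change being +0.44 and of +0.04 without KO replicate 1. Cdkn1a, which encodes the cyclin-dependent kinase inhibitor p21 and is the classical readout of p53 activity, was at 308, 239 and 194 CPM in KO and 232, 206 and 285 CPM in WT. The groups interleave, with a log2 fold change of +0.04 (SE 0.26, edgeR adjusted p = 0.968). At 110.1 ± 35.7 FPKM in KO and 103 ± 20.7 FPKM in WT it was one of the more abundant members. Btg2, an antiproliferative cofactor of mRNA deadenylation, was at 64.7, 44.98 and 38.4 CPM in KO and 34.5, 41.3 and 49.1 CPM in WT (+0.25, SE 0.27).

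Plk2, a polo-like kinase induced by p53, was the member with the lowest fold change. It was at 43.6, 58.03 and 54.5 CPM in KO and 91.5, 91.9 and 74.4 CPM in WT. All KO libraries lay below all WT libraries, KO replicate 1 the lowest of them. The log2 fold change was -0.72 (SE 0.22, unadjusted p = 0.0110, edgeR adjusted p = 0.529), and the exact two-sided permutation p was again 0.1. Leaving out KO replicate 1 gave -0.61 (SE 0.16), with an unadjusted p of 0.0052 and an edgeR adjusted p of 0.292.

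Gtse1, Psrc1 and Ptp4a3 were highest in KO replicate 1 and nearer to WT in the other KO libraries. For Gtse1 and Psrc1, KO replicate 2 also lay above every WT library. Gtse1, a microtubule-binding protein of G2 and mitosis that restrains p53, was at 162, 95.8 and 73.4 CPM in KO and 68.3, 85.9 and 58.6 CPM in WT (log2 fold change +0.64, SE 0.32, edgeR adjusted p = 0.682). Psrc1, a spindle protein, was at 58.4, 33.3 and 26.0 CPM in KO and 19.4, 28.4 and 24.9 CPM in WT (+0.70, SE 0.34). Ptp4a3, the phosphatase PRL-3, was at 224, 76.7 and 42.1 CPM in KO and 49.7, 76.7 and 43.7 CPM in WT (+1.01, SE 0.55). For Ptp4a3, KO replicate 1 was at 2.92 times the next library and KO replicate 3 was the lowest. Without KO replicate 1 the log2 fold changes were +0.25 for Gtse1, +0.29 for Psrc1 and +0.07 for Ptp4a3. Gdf15, a secreted stress cytokine, had 1 read in KO replicate 1, 1 in WT replicate 1 and 0 elsewhere. Where it is at 0, the depth allows up to 3 counts, that is 0.109 to 0.295 CPM over all 6 libraries, by counting error alone.

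**Figure D2:**
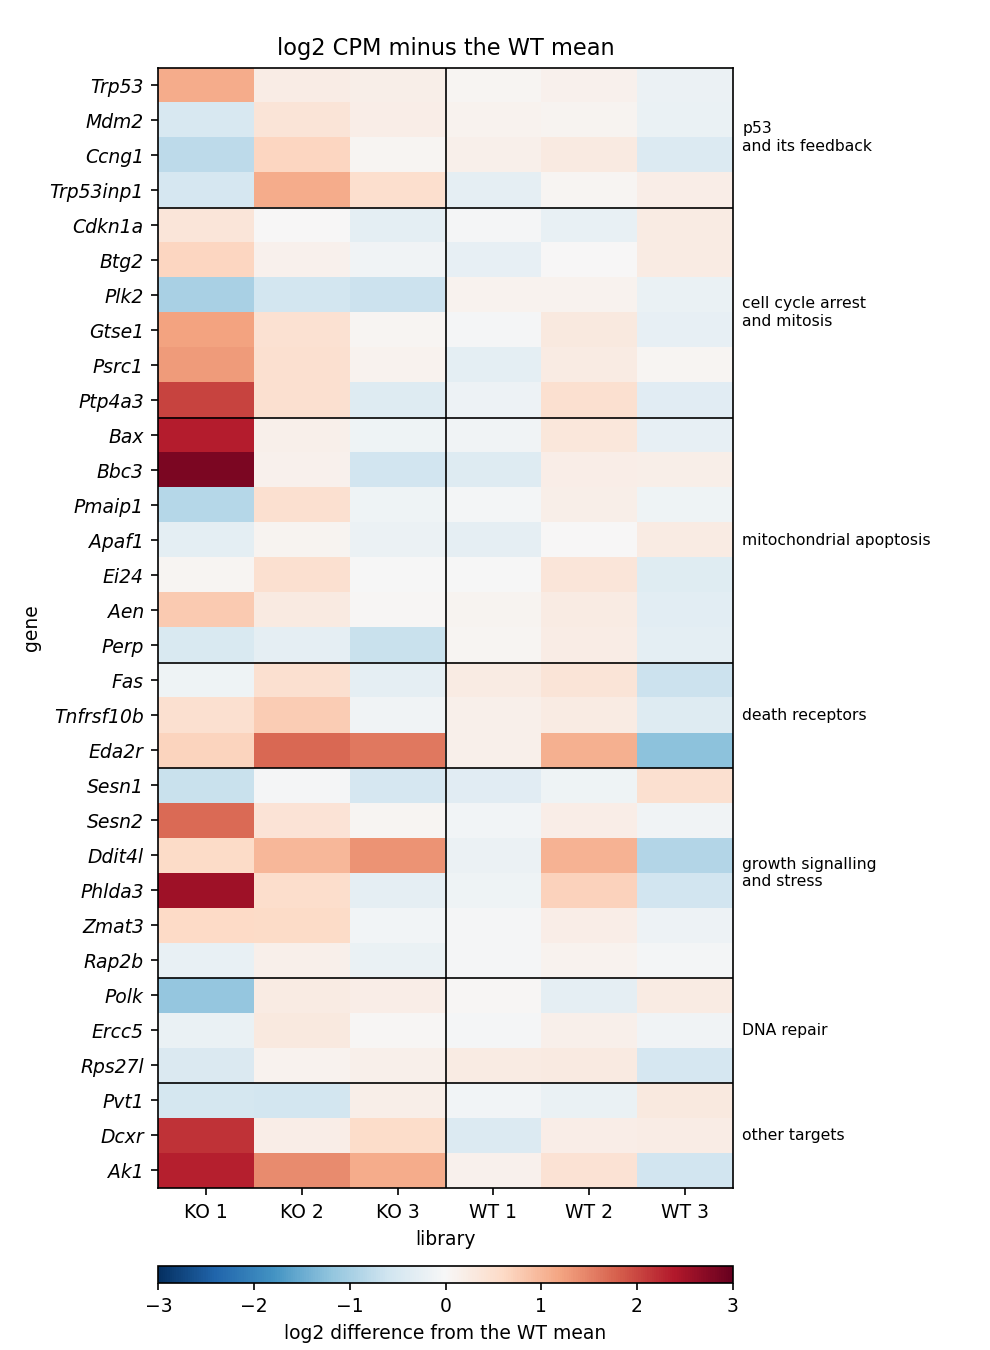
Difference of each library's log2 CPM from the WT mean (colour) for the 32 tested members (rows, ordered by role) in 3 KO and 3 WT libraries (columns). The strongest reds sit in the KO replicate 1 column, for Bbc3, Phlda3, Bax, Dcxr, Ptp4a3 and Ak1, and the same column is blue for Polk, Ccng1 and Pmaip1.

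Among the 7 genes of mitochondrial apoptosis, 4 above 0 and 3 below with a median log2 fold change of +0.16, the values of Bax and Bbc3 rested on KO replicate 1. Bax, which permeabilizes the outer mitochondrial membrane, was at 208, 44.98 and 37.3 CPM in KO and 37.5, 51.5 and 34.4 CPM in WT. Its log2 fold change of +1.24 (SE 0.61, edgeR adjusted p = 0.682) became 0.00032 (SE 0.22) without KO replicate 1. Of the exon bases annotated for Bax, 12.2% overlap the gene Gm45808 on the same strand, so some reads may be shared. Bbc3, the BH3-only protein PUMA, was at 24.3, 3.70 and 2.21 CPM in KO and 2.53, 3.88 and 3.80 CPM in WT. KO replicate 1 was 6.25 times the next library, while KO replicate 3 was the lowest of all 6. The log2 fold change was +1.58 (SE 0.80, edgeR adjusted p = 0.684), and -0.20 (SE 0.39) without KO replicate 1.

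The other apoptosis genes had smaller differences, in both directions. Pmaip1, the BH3-only protein NOXA, was at 18.1, 45.6 and 30.1 CPM in KO and 31.3, 37.3 and 30.1 CPM in WT, so that KO replicate 1, the highest library for Bbc3, was the lowest for Pmaip1 (log2 fold change -0.08, SE 0.34). Perp, a membrane protein of desmosomes and apoptosis, was at 12.6, 14.5 and 10.8 CPM in KO and 18.3, 20.4 and 14.2 CPM in WT. KO replicate 2 lay just above WT replicate 3, and the log2 fold change was -0.48 (SE 0.29, edgeR adjusted p = 0.724), nearly the same without KO replicate 1 (-0.47). Apaf1, the scaffold of the apoptosome, stood at -0.14 (SE 0.23), Ei24, an endoplasmic reticulum protein, at +0.16 (SE 0.26), and Aen, an apoptosis-enhancing nuclease, at +0.38 (SE 0.28). None of these 3 had groups that were separate.

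Of the death receptors, Fas and Tnfrsf10b had overlapping groups at moderate levels, and Eda2r was near the limit of detection. Fas was at 18.7, 28.4 and 16.8 CPM in KO and 24.4, 26.7 and 13.1 CPM in WT (log2 fold change -0.01, SE 0.36). Tnfrsf10b, the mouse receptor for the death ligand TRAIL, was at 50.4, 62.0 and 33.7 CPM in KO and 40.4, 43.2 and 27.6 CPM in WT (+0.40, SE 0.30). Both receptors were lowest in the library labelled WT replicate 3. Eda2r, a receptor for the A2 form of ectodysplasin, had 29, 38 and 26 reads in KO and 20, 46 and 8 reads in WT, or 1.33, 2.87 and 2.61 CPM against 0.904, 1.80 and 0.287 CPM. Its log2 fold change was +1.17 (SE 0.67, edgeR adjusted p = 0.716), with WT replicate 2 above KO replicate 1.

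Of the 6 stress and growth-signalling targets, 4 stood above 0 and 2 below, with a median log2 fold change of +0.65 and of +0.16 without KO replicate 1. Sesn2, a leucine sensor that inhibits mTORC1, was at 94.3, 38.5 and 30.1 CPM in KO and 27.2, 33.4 and 26.9 CPM in WT (log2 fold change +0.90, SE 0.42, edgeR adjusted p = 0.663). Its paralog Sesn1 was at 14.99, 23.4 and 16.9 CPM in KO and 18.8, 21.8 and 33.7 CPM in WT (-0.43, SE 0.32). The sestrins thus had opposite signs, with Sesn2 highest and Sesn1 lowest in KO replicate 1. Phlda3, which competes with AKT for membrane lipids, was at 54.1, 13.2 and 7.62 CPM in KO and 8.36, 14.98 and 6.13 CPM in WT (+1.35, SE 0.69), and stood at +0.09 (SE 0.41) without KO replicate 1. Zmat3, an RNA-binding zinc finger protein, was at 164, 161 and 103 CPM in KO and 105, 123 and 96.6 CPM in WT, with KO replicates 1 and 2 both above WT (+0.39, SE 0.25). Ddit4l, a relative of the mTOR inhibitor REDD1, had 7 or 8 reads per KO library and 2 to 14 per WT library, and Rap2b, a small GTPase, stood at -0.08 (SE 0.22). Of the exon bases annotated for Rap2b, 54.5% overlap a gene on the opposite strand, and the strand setting of the counting is not given, so its value is uncertain.

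The DNA repair members showed no difference beyond their error. Polk, a translesion DNA polymerase, was at 28.5, 76.4 and 73.6 CPM in KO and 65.7, 52.9 and 75.4 CPM in WT (log2 fold change -0.12, SE 0.37). Only KO replicate 1 lay outside the others, 1.85 times below the next lowest library. Ercc5, the nucleotide excision repair nuclease XPG, was at 32.8, 46.4 and 38.9 CPM in KO and 36.7, 42.0 and 35.2 CPM in WT (+0.05, SE 0.24). Rps27l, a relative of the ribosomal protein Rps27 that takes part in the p53 and Mdm2 loop, had the highest level per length of the list, 453 ± 69.8 FPKM in KO and 474 ± 122 FPKM in WT (-0.07, SE 0.29). Reads may be shared between Rps27l and its close relatives, so that its level is uncertain.

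Ak1, adenylate kinase 1, which balances adenine nucleotides, had the largest fold change of the tested members and separate groups. It had 206, 66 and 40 reads in KO and 44, 63 and 33 reads in WT, or 9.42, 4.98 and 4.01 CPM against 1.99, 2.47 and 1.184 CPM. All KO libraries lay above all WT libraries, at low counts. The log2 fold change was +1.71 (SE 0.47, unadjusted p = 0.0059, edgeR adjusted p = 0.456) and +1.26 (SE 0.41, edgeR adjusted p = 0.372) without KO replicate 1, and the exact two-sided permutation p was 0.1. Dcxr, a carbonyl and xylulose reductase, was at 15.4, 3.85 and 4.91 CPM in KO and 2.49, 3.84 and 3.91 CPM in WT (+1.25, SE 0.55, edgeR adjusted p = 0.661). KO replicate 2 lay within the WT range for Dcxr, and without KO replicate 1 it stood at +0.35 (SE 0.34). Pvt1, a long noncoding RNA beside Myc, was at 8.18, 8.07 and 13.3 CPM in KO and 11.2, 10.3 and 14.5 CPM in WT (-0.29, SE 0.33).

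**Figure D3:**
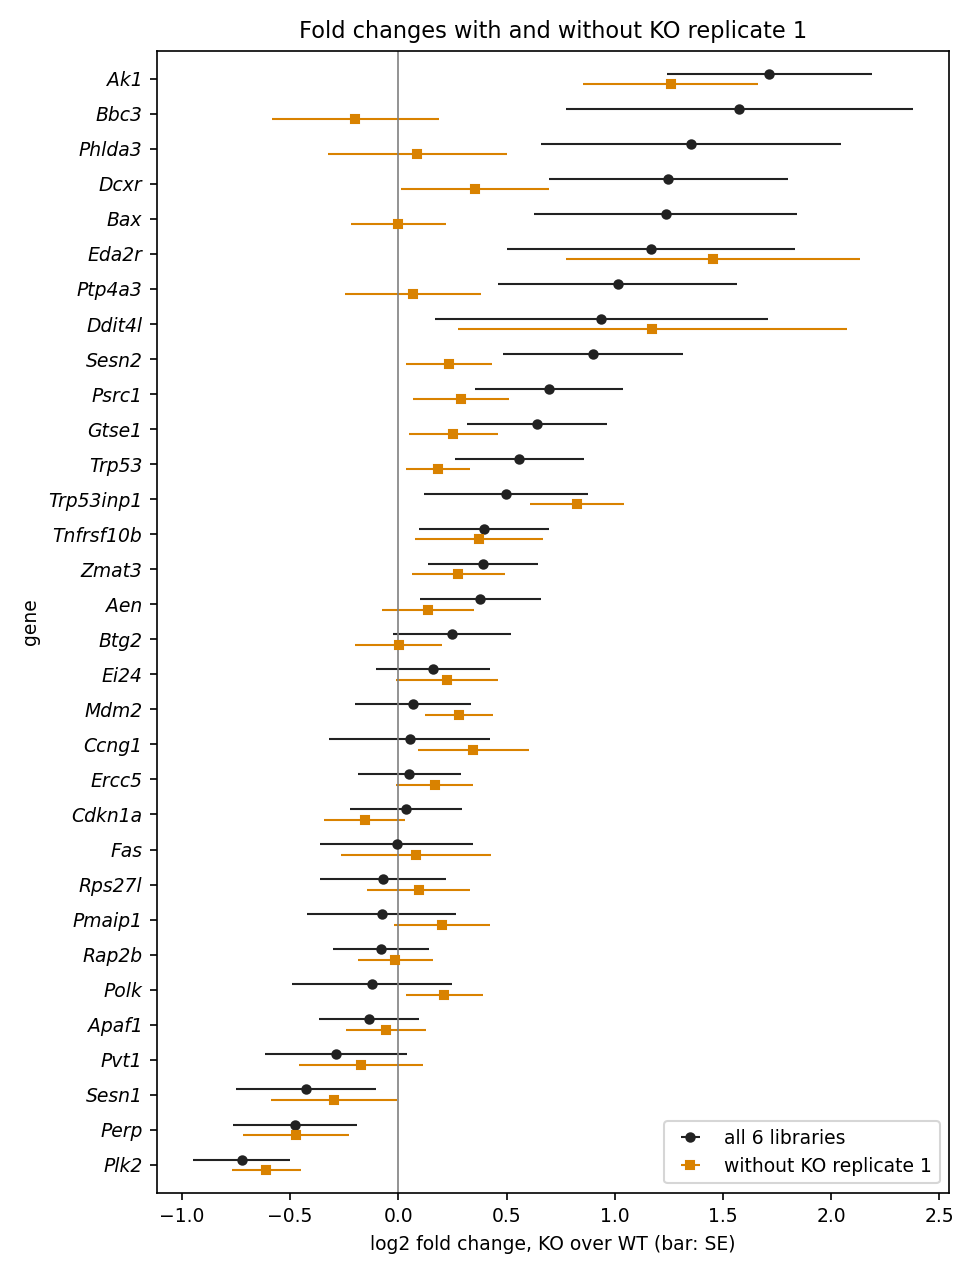
Log2 fold change of KO over WT with its standard error for the 32 tested members, ordered by the value with all 6 libraries (black circles), beside the value without KO replicate 1 (orange squares). Phlda3, Dcxr, Bax, Ptp4a3 and Sesn2 move towards 0 without that library, and Bbc3 crosses 0. Ak1, Plk2 and Perp move less far towards 0, while Eda2r and Trp53inp1 move away from it.

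KO replicate 1 was the highest or the lowest of the 6 libraries for 24 of the 32 members, 14 times the highest and 10 times the lowest. Over all genes tested it was at one end for 71.5%. KO replicate 2 was the highest library for 11 members (34.4%, against 11.5% of all genes), and WT replicate 3 the lowest for 14 (43.8%, against 16.8% of all genes). The direction followed the base composition of the transcripts. Across the 32 members, the difference between KO replicate 1 and the mean of the other 5 libraries correlated with the GC content of the longest coding transcript at r = 0.91 (Spearman rho = 0.86), and across 11674 genes at r = 0.82 (rho = 0.83). These are descriptions across genes, which share libraries and are not independent. All 7 members under 45% GC were below 0 on this measure, from -1.25 for Polk (41.6% GC) to -0.0023 for Eda2r (40.9% GC), and all 12 members at or above 50% GC were above 0. The 4 members at or above 60% GC, Dcxr, Phlda3, Bax and Bbc3, had differences of +2.02 to +2.91 on the log2 scale, where the median of all 473 genes in that range was +1.52. Ptp4a3 (54.0% GC) and Ak1 (54.4% GC) stood at +2.01 and +1.82, in a range of 50% to 55% GC with a median of +0.41.

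With a term for GC content and length in each library, an alternative added after the data were seen, the difference of KO replicate 1 from the others shrank to +0.70 for Bax, +0.94 for Phlda3, +0.63 for Dcxr and +0.42 for Sesn2, and to +1.17 for Bbc3, +1.39 for Ptp4a3 and +1.14 for Ak1. The spread of these differences (SD) over the members was 0.49 with the term and 1.13 without it. The term was fitted to the same libraries over all genes. A smaller spread therefore follows in part from the fit and is no test of it. The difference came nearer to 0 for 24 of the 32 members and lay farther from 0 for 8, with a change of sign for 9. Of the 11772 genes tested, 8719 came nearer to 0 and 2955 lay farther, with a change of sign for 3836. Eda2r stood at +1.178 with the term and -0.0023 without it, Trp53inp1 at +0.65 and -0.84, and Fas at +0.66 and -0.17. Cdkn1a passed from +0.43 to -0.25 on the same measure, and Trp53 stood at +0.41. In that fit the KO over WT log2 fold change was +0.42 for Bax, +0.34 for Trp53, -0.15 for Cdkn1a, +0.81 for Trp53inp1, +1.45 for Ak1 and -0.66 for Plk2. Among these the smallest edgeR adjusted p was 0.113, for Plk2, and 0 of 32 members passed. Of the 32, 25 were above 0, beside 47.6% of all genes, and 6 had an unadjusted p under 0.05, where 12.2% of all genes had one.

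**Figure D4:**
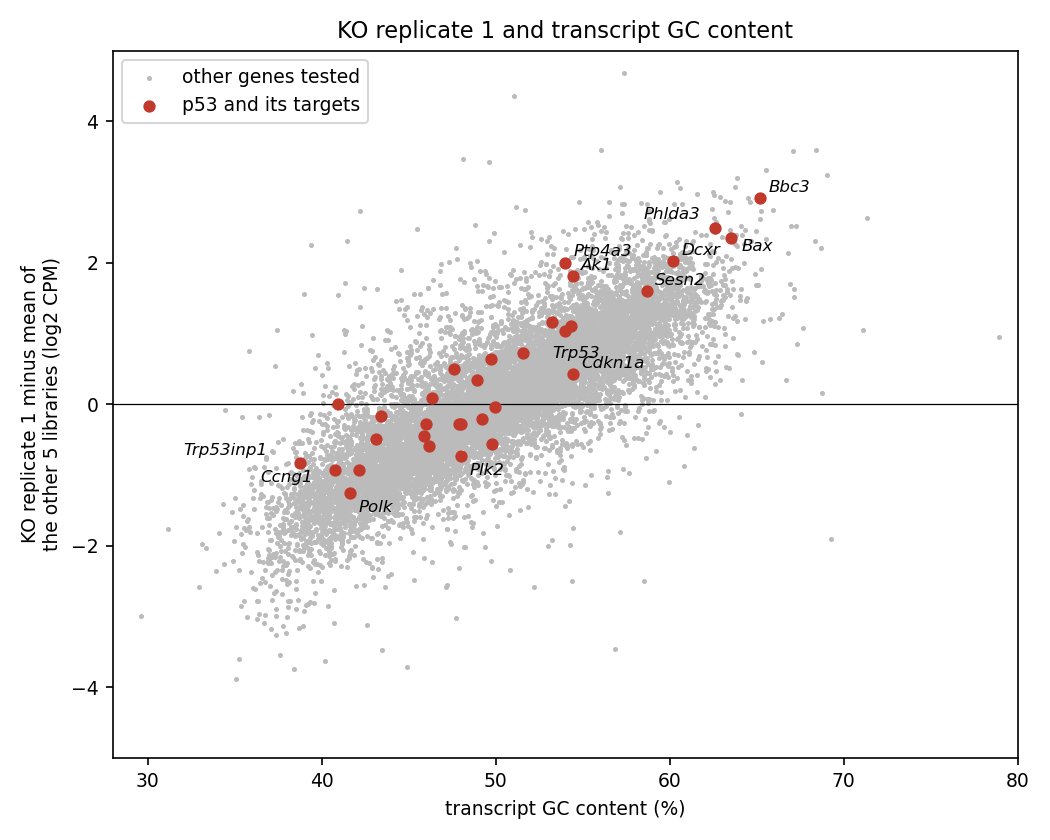
Difference in log2 CPM between KO replicate 1 and the mean of the other 5 libraries against the GC content of the transcript (%), for p53 and its targets (red, 32 genes) and the other genes tested (grey). The members rise with GC content as all genes do, with Bbc3 (65.2% GC) at +2.91 and Polk (41.6% GC) at -1.25. Their median lay above that of all genes at 50% to 55% GC (+1.1 against +0.41) and at or above 60% GC (+2.42 against +1.52).

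KO replicates 2 and 3 against WT gave 24 of 32 members above 0 and a median of +0.18 on the log2 scale, where 46.4% of all genes were above 0 and the median was -0.03. The count above 0 depended on the library left out. It was 18 of 32 without KO replicate 2 (median +0.13) and 19 without WT replicate 3 (median +0.22). Without KO replicate 3 it was 22, without WT replicate 1 it was 23 and without WT replicate 2 it was 24. By unadjusted p under 0.05 there were 3 members, Trp53inp1 and Ak1 higher and Plk2 lower, and 0 passed with adjustment, where 10.4% of all genes had an unadjusted p under 0.05. Cdkn1a stood at -0.16 (SE 0.19), Mdm2 at +0.28 (SE 0.16) and Ccng1 at +0.35 (SE 0.26) in this comparison.

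Other genes of the pathway were read from 3 lists. Of 21 regulators and partners of p53, 19 were tested, 8 above 0 and 11 below, the median log2 fold change being -0.17. In edgeR 0 passed in either direction, and in DESeq2 2 passed, Cdkn2a (adjusted p = 0.00276) and Crebbp (adjusted p = 0.00947), both higher in KO. Cdkn2a, the locus of the cell cycle inhibitor p16 and of ARF, which binds Mdm2, had 91, 30 and 10 reads in KO and 2, 10 and 6 reads in WT, or 4.16, 2.26 and 1.003 CPM against 0.0904, 0.392 and 0.215 CPM. Its groups were separate (log2 fold change +3.39, SE 0.72, edgeR adjusted p = 0.331), it stood at +2.78 without KO replicate 1, and its transcript has 60.2% GC. Counts per symbol do not tell its products apart. Crebbp, an acetyltransferase that acts on p53, was at 138, 101 and 101 CPM in KO and 60.1, 56.3 and 49.3 CPM in WT, also with separate groups (+1.04, SE 0.23, edgeR adjusted p = 0.331). Hipk2, a p53 kinase, stood at +0.68 (SE 0.29), and Rpl5 at -0.45 (SE 0.30), with 562, 973 and 1163 CPM in KO and 1356, 1141 and 1178 CPM in WT. Without KO replicate 1, Crebbp stood at +0.87, Hipk2 at +0.65 and Rpl5 at -0.20.

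Of 19 further p53 targets, 18 were tested, 12 above 0 and 6 below, with a median of +0.12, and 0 passed in edgeR and 1 in DESeq2. Plk3, another polo-like kinase, was at 125, 68.8 and 36.1 CPM in KO and 30.1, 37.1 and 22.1 CPM in WT (+1.37, SE 0.43, edgeR adjusted p = 0.529). Plk2 and Plk3 thus had opposite signs. Sfn, which encodes 14-3-3 sigma, stood at +0.999 (SE 0.46) and Steap3, a metalloreductase, at +1.16 (SE 0.54), both highest in KO replicate 1. Without that library, Plk3 stood at +0.82, Sfn at +0.37 and Steap3 at +0.56. Of 12 genes of the cell cycle that p53 represses through p21 and the DREAM complex, 6 were above 0 and 6 below, with a median of +0.01, and 0 passed in edgeR or in DESeq2. Ccnb1, a mitotic cyclin, stood at -0.46 (SE 0.24) and Cdc25c, a phosphatase that starts mitosis, at -0.43 (SE 0.25). Foxm1, a transcription factor of G2 genes, stood at +0.44 (SE 0.25) and the mitotic kinase Plk1 at +0.39 (SE 0.24). Without KO replicate 1, Ccnb1 stood at -0.36, Cdc25c at -0.31, Foxm1 at +0.20 and Plk1 at +0.19.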

How the data were processed

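Gene counts, FPKM values and an alignment report of 6 libraries (3 KO, 3 WT) were used. Groups and replicate numbers come from the sample titles. The authors deposited whole-number counts for 24982 symbols and FPKM values, normalized by length and depth, for 24917 of them. Per the series' design text, stranded mRNA libraries gave single-end reads of 75 bp, which went through the VIPER pipeline. STAR 2.4.2a made the alignments, per the file headers, against mm9, per the submitters' processing notes. Which tool counted reads, with which strand setting and gene models, is not given in the sources used here. The alignment report deposited by the authors supplied the other values, such as mismatch rates.

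The quasi-likelihood F test of edgeR 4.0.16 (R 4.3.3) was run on the counts with TMM factors. Genes were kept by filterByExpr at 10 counts, which left 11772, and p-values were adjusted over all of them by Benjamini-Hochberg, with a threshold of 0.05. Standard errors come from the F statistic. DESeq2 1.42.0 and limma 3.58.1 were alternatives. Log2 fold changes are KO over WT. The test was also run on simulated counts with added fold changes. Those counts held no shift of a library with GC content, so they cannot vouch for the test under such a shift. Dates replace the symbols of 26 rows (0.271% of counts), which were kept in the library sizes. GC content and length come from GENCODE M21 transcripts and promoters from RefSeq (GRCm38.p6), matched by symbol, and no coordinates were converted. The members and lists were chosen with earlier results of these data known. All members were named, plus Srsf1, Foxp3, Il2ra, Cd4 and further cell type markers, and up to 4 genes with the smallest p per pathway list. One gene that this rule would name is not reported here.

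The labels do not state how the 3 libraries of a group were cultured, so p-values measure the spread between these libraries. Every pair of libraries differed by more than sampling noise (chi-square per degree of freedom of 22.05 or more).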

Additional observations from a re-analysis of the deposited data

How the results depend on the processing

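All 22 alternatives left 0 members past the threshold except DESeq2's Wald test, which passed 1, Ak1, and 16 of the 32 members kept their sign throughout. The number of genes passing over the whole table, 2, became 6 with no filter, 129 in DESeq2, 1 with limma voom, 0 with the sex of the animal as a covariate (replicate 2 of both groups was male by its Y-linked counts), 0 on log2(FPKM + 1) with no filter and 80 without KO replicate 1 and WT replicate 3 together. Leaving out single libraries gave 0 to 3 genes. With GC and length correction, added after the data were seen, it was 13, and 4 when KO replicate 1 was also left out. The replicate block gave 1 gene and 0 members. The correlations of same-numbered deviations were -0.36, 0.15 and 0.14, and not every library correlated best with its own number. With 3 libraries per group, these correlations cannot exclude a pairing by number. The sex of the animals matched by number.

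The other 16 members changed sign under at least 1 alternative, and the cause was not tested. Over single libraries left out, log2 fold changes ran from -0.11 to 0.28 for Mdm2, -0.34 to 0.35 for Ccng1, -0.16 to 0.16 for Cdkn1a, -0.20 to 2.00 for Bbc3, -0.46 to 0.20 for Pmaip1, -0.0084 to 0.36 for Ei24, -0.27 to 0.18 for Fas, -0.35 to 0.21 for Polk, -0.087 to 0.17 for Ercc5 and -0.29 to 0.094 for Rps27l. Without KO replicate 1 and WT replicate 3 together, the values were -0.066 for Ptp4a3, -0.092 for Bax, -0.086 for Bbc3, 0.17 for Pmaip1, 0.10 for Apaf1, 0.014 for Sesn1, -0.14 for Phlda3, 0.36 for Polk and 0.0069 for Pvt1. With GC and length correction, and again with KO replicate 1 also left out, they were -0.15 and -0.077 for Cdkn1a, 0.18 and 0.19 for Pmaip1, 0.32 and 0.11 for Fas, 0.087 and 0.17 for Polk, and 0.26 and 0.18 for Rps27l. Ccng1 stood at -0.029 with limma voom, -0.023 with the replicate block and -0.0093 with the sex covariate, and Cdkn1a at -0.00022 with no filter. Fas stood at 0.036 with upper-quartile scaling, 0.049 with library size only, 0.032 with limma voom, 0.018 with the replicate block, 0.054 on log2(FPKM + 1) with and without a filter, and 0.060 on log2(FPKM + 0.1). With standard errors of 0.22 to 0.80 and KO libraries of lower depth than WT, small differences were not detectable, and Ddit4l, Eda2r and Ak1 rest on few reads.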
